A study of Mus musculus with 3 samples.

Results

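The genes Il17a and Il17f, which encode the related cytokines IL-17A and IL-17F, were examined in 100 kb of chromosome 1 that holds both. The interval was fixed by position on mm9, from 20700000 to 20799999, with the start of Il17a placed near 20721000 and that of Il17f near 20774400, 53.4 kb apart. All reads of 3 chromatin immunoprecipitation sequencing (ChIP-seq) libraries that fell inside it were used: 932 of 12281399 wild-type H3K4me3 reads, 674 of 12075963 STAT3-deficient H3K4me3 reads and 4247 of 10127075 wild-type phospho-STAT3 reads. A stretch enriched for H3K4me3 is called marked when both H3K4me3 libraries together had 50 or more reads there. The interval held 3 of the 10971 marked regions of the genome and 18 of its 27061 phospho-STAT3 sites.

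Naive CD4 T cells (CD44-, CD62L+) were sorted from mice and grown on plate-bound anti-CD3 and anti-CD28 for 72 h. IL-6 at 10 ng/ml, TGF-b at 2.5 ng/ml and antibodies that block IL-2, IL-4 and IFN-g were present, a mixture that drives cells towards the Th17 state, and IL-6 was given again for 1 h before chromatin was prepared. The wild-type cells carried Stat3fl/fl and FoxP3-GFP without Cre, and the STAT3-deficient cells carried Stat3fl/fl, FoxP3-GFP and CD4-Cre, whose Cre is driven by Cd4 sequences and acts in T cells. All 3 libraries thus share the floxed allele, the FoxP3-GFP reporter and the cytokine treatment, and the labels do not say how many animals were pooled. H3K4me3 was profiled in both genotypes and phospho-STAT3 (with an antibody to its serine-phosphorylated form) in wild-type cells, with 1 library each. Genotypes could therefore not be compared against the spread between replicates, and every interval below is a 95% interval that covers counting error only. Phospho-STAT3 in STAT3-deficient cells and an input control were not analysed here. Markers of the labelled cell type were not checked, since no genes other than Il17a and Il17f were placed on mm9.

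IL-17A and IL-17F are secreted as homodimers or as a heterodimer and act through a shared receptor on epithelial and stromal cells, which answer with chemokines and antimicrobial peptides that bring in neutrophils. Th17 cells, the T helper cells named after them, arise when IL-6 activates the transcription factor STAT3 together with TGF-b, and the nuclear receptor RORgt is then needed for transcription of both genes. H3K4me3, trimethylation of lysine 4 of histone H3, collects around the start sites of active genes, whereas enhancers carry little of it.

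The genes lie on opposite strands, and in the RefSeq order of genes they are direct neighbours, with Mcm3 next to Il17f. The 250 bases before each start are shown because marked H3K4me3 regions and phospho-STAT3 sites lay at both starts. They are from RefSeq on GRCm38.p6, 5′ to 3′ along each gene (Il17a on the plus strand, Il17f on the minus strand), and are printed without coordinates because the reads are on another build. Capitals mark AGGTCA or its complement TGACCT, a half-site bound by ROR receptors, and TGTGGT or its complement ACCACA, bound by RUNX factors.
Il17a: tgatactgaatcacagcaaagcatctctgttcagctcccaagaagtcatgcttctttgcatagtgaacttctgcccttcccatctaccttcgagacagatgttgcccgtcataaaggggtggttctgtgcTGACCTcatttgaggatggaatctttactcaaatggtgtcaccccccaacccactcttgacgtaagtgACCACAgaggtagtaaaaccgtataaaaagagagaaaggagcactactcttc
Il17f: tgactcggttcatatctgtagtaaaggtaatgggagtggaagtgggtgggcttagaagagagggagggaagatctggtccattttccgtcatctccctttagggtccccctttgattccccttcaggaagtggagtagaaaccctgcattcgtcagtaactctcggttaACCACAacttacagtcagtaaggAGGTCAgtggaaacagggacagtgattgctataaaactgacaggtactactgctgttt
Both promoters held 1 ROR half-site and 1 RUNX match. The ROR letters began 120 bases before the Il17a start and 58 bases before the Il17f start, and the RUNX letters 52 and 81 bases before. Searched on both strands in the same 250 bases of 32851 mouse promoters, the ROR half-site was present in 14.02% and the RUNX letters in 14.05%. The promoters differed in the other motifs searched. The AP-1 motif TGANTCA matched once, in Il17a, and is in 6.75% of all promoters, and the NFAT core GGAAA matched at 2 places in Il17f, none in Il17a, and is in 55.6%. The STAT motif TTCNNNGAA was in neither member promoter and in 7.02% of all promoters. These matches describe letters and not bound sites, and all motifs but that of STAT were picked after the letters had been read.

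Wild-type H3K4me3 rose at the position given above for the Il17a start, and at both genes the mark extended from near the start into the gene. A window of 200 bp just inside the Il17a start held 30 wild-type H3K4me3 reads against 3 in the window just before it. At Il17f no clear edge was seen, with 9 reads just inside, 4 in the next window inward and 4 just before. The marked region there ended at 20774399 and ran 2.20 kb into the gene. Region ends fall on a grid of 200 bp that holds both start positions, so they do not place an edge more closely than that. Across the interval, 3 of 100 windows of 1 kb held no read in any library, and the median window held 6 wild-type H3K4me3, 6 STAT3-deficient H3K4me3 and 20 phospho-STAT3 reads.

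**Figure D1:**
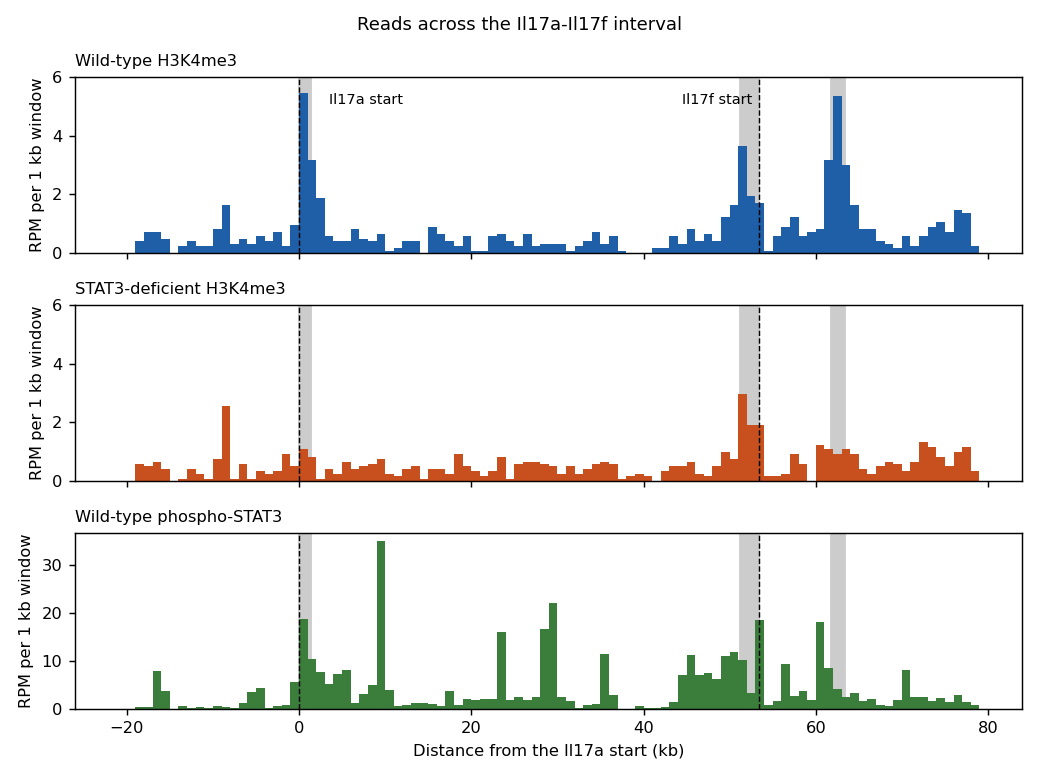
Read density of each library in 1 kb windows (vertical axes, as RPM) against the distance from the Il17a start in kb; dashed lines mark the gene starts and grey bands the 3 marked H3K4me3 regions. H3K4me3 at the Il17a start and beyond the Il17f start is high in wild-type cells and low in STAT3-deficient cells, H3K4me3 at the Il17f start is present in both, and phospho-STAT3 shows many peaks between and around the genes.

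H3K4me3 at the Il17a start was high in wild-type and low in STAT3-deficient cells. The marked region there, chr1:20721000-20722399, begins at the start and covers 1.40 kb of the gene. It held 98 wild-type reads (interval 79.6 to 119) and 18 STAT3-deficient reads (10.7 to 28.4), which is 7.98 and 1.49 RPM (reads per 1000000 reads of the library). The intervals of both counts do not overlap. Ratios of STAT3-deficient to wild-type reads were scaled so that the median of all marked regions was 0 on the log2 scale, and the scaled log2 ratio at Il17a was -2.74 (-3.55 to -2.01), 6.68-fold lower. Scaled by library totals instead, it was -2.42 (-3.23 to -1.69), 5.35-fold lower.

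The wild-type mark at Il17a did not form an even plateau. The first kb of the gene held 67 wild-type and 13 STAT3-deficient H3K4me3 reads, the next kb held 39 and 10, and the one after that 23 and 1. Of these, the last had a scaled log2 ratio of -4.82, but with 1 read its interval ran from -10.18 to -2.20. From 3 to 4 kb the counts were 7 and 5, and from 4 to 10 kb they were 39 and 38, so the excess of wild-type reads ended about 3 kb into Il17a. Before the start, the first kb held 12 and 6 reads, with an interval of the ratio (-3.00 to 0.23) that includes no difference. In the first 1.40 kb, the wild-type reads stood in 3 humps, with 30 reads from 0 to 200 bp, 17 from 800 to 1000 bp and 27 from 1200 to 1400 bp. Between them were windows with 1 and 4 reads. STAT3-deficient reads reached at most 5 in any of these windows. Wild-type phospho-STAT3 reads were also high at the humps, with 74, 38 and 52, and low in the windows between them, with 7 and 15. The match was not exact, since the window from 600 to 800 bp held 40 phospho-STAT3 but 8 wild-type H3K4me3 reads. Whether a property common to the libraries, such as mappability, shapes both was not tested.

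**Figure D2:**
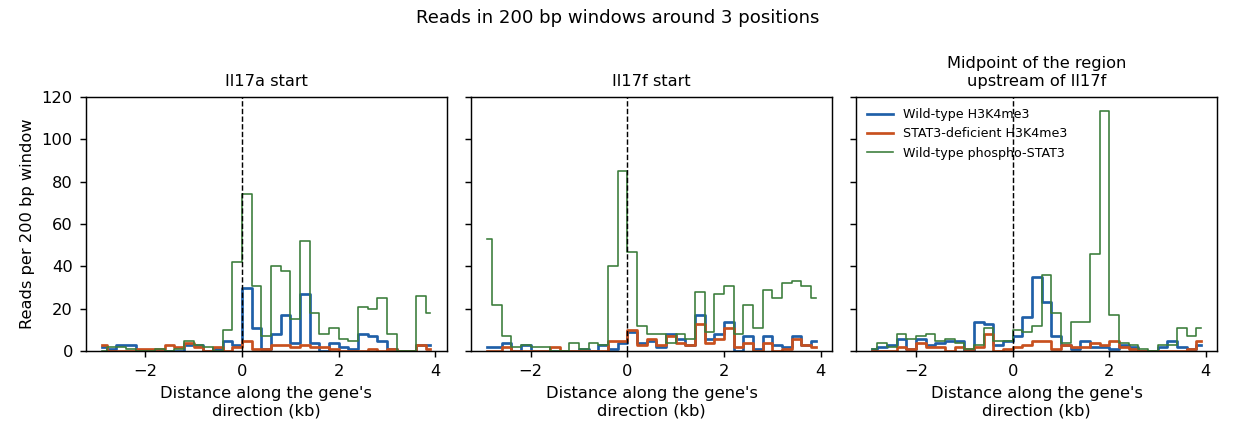
Reads per 200 bp window (vertical axis) against distance in kb along the direction of the gene, for the Il17a start, the Il17f start and the midpoint of the marked region upstream of Il17f, drawn in the direction of Il17f. The wild-type and STAT3-deficient H3K4me3 lines part at Il17a and at the upstream region. The highest wild-type windows there held 30 and 35 reads, and the same windows held 5 STAT3-deficient reads each. The highest STAT3-deficient window at the upstream region held 8. At the Il17f start the lines lie close to each other, and the highest windows held 17 and 13.

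H3K4me3 at the Il17f start was present in both genotypes. The marked region, chr1:20772200-20774399, held 82 wild-type reads (65.2 to 102) and 70 STAT3-deficient reads (54.6 to 88.4), 6.68 and 5.80 RPM. The intervals of the counts overlap. The scaled log2 ratio was -0.52 (-1.01 to -0.05), 1.44-fold lower and short of the size rule used for a differing region, which asks for at least 2-fold and an interval that leaves out no difference. By library totals it was -0.20 (-0.69 to 0.27), an interval that includes no difference. Of all marked regions, 7.14% had a lower ratio than the Il17f start.

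The highest H3K4me3 window at Il17f was the same in both genotypes. This 200 bp window, from 1400 to 1600 bp into the gene, held 17 wild-type and 13 STAT3-deficient reads, the most of any such window in both libraries. The first kb of Il17f held 28 wild-type and 29 STAT3-deficient reads, the next 40 and 30, the third 29 and 21, and the fourth 20 and 12. Each of these 4 intervals of the ratio includes no difference, with scaled values from -0.25 in the first kb to -1.03 in the fourth. Before the Il17f start, the first kb held 9 and 10 reads, and the 4 kb before that, which hold the phospho-STAT3 site 2.85 kb upstream of the start, held 35 and 19. The scaled log2 ratio over those 4 kb was -1.18 (-2.07 to -0.33), and by library totals it was -0.86 (-1.74 to -0.01), so both intervals leave out no difference.

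A further marked region lay beyond the Il17f start, outside the gene. It spans chr1:20782800-20784399, from 8.40 to 10.0 kb upstream of the Il17f start, and no gene of this study was placed on it. It held 116 wild-type reads (95.9 to 139) and 26 STAT3-deficient reads (16.98 to 38.1), 9.45 and 2.15 RPM, so these intervals do not overlap. The scaled log2 ratio was -2.45 (-3.13 to -1.83), 5.48-fold lower, and by library totals -2.13 (-2.81 to -1.51). Its wild-type count was the highest of the 3 marked regions, though its interval overlaps those of both gene starts. Its highest 200 bp window held 35 wild-type and 5 STAT3-deficient reads.

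**Figure D3:**
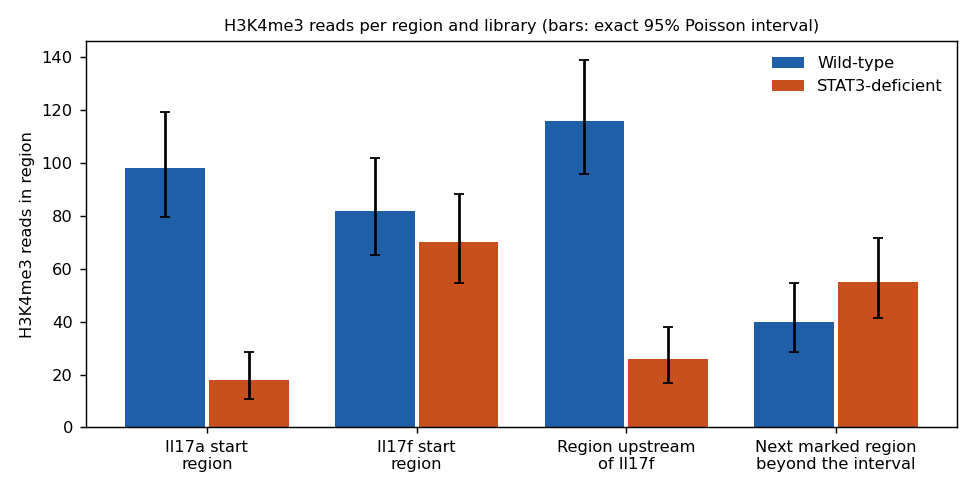
H3K4me3 reads (vertical axis, with exact 95% Poisson intervals) in the 3 marked regions of the interval and the next marked region beyond it, for the wild-type and the STAT3-deficient library. Wild-type and STAT3-deficient intervals are apart at the Il17a start (98 and 18 reads) and at the region upstream of Il17f (116 and 26), and overlap at the Il17f start (82 and 70) and beyond the interval (40 and 55).

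The Il17a start and the region upstream of Il17f thus differed from the Il17f start. The log2 ratio at Il17a was lower than at the Il17f start by a difference of -2.22 (exact conditional interval -3.16 to -1.31), a 4.65-fold difference that does not depend on the scaling. The upstream region was lower than the Il17f start by a difference of -1.93 (-2.76 to -1.12). Il17a and the upstream region differed by -0.29 (-1.33 to 0.73), not distinguishable at this depth. Next beyond the interval, 8.80 kb past its end, a marked region at chr1:20808800-20810399 held 40 reads in wild-type and 55 in STAT3-deficient cells, with a scaled log2 ratio of 0.16 (-0.45 to 0.79).

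Among all marked regions the ratio at Il17a was near the end of the range. By the size rule 2 of the 3 marked regions of the interval were lower, against 1.16% of all 10971 marked regions (127), and none was higher, against 1.01% (111). Both lower regions count as marked through the wild-type library, since they held only 18 and 26 STAT3-deficient reads. Neither was called on STAT3-deficient reads alone. Ordered from the lowest ratio, Il17a ranked 6 and the upstream region 10 of 10971, while the Il17f start ranked 784. The middle 90% of marked regions lay between -0.62 and 0.55, a range that holds the Il17f start and not the other two. Fewer cells carrying the mark and less of the mark per cell cannot be told apart in these pooled cultures.

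**Figure D4:**
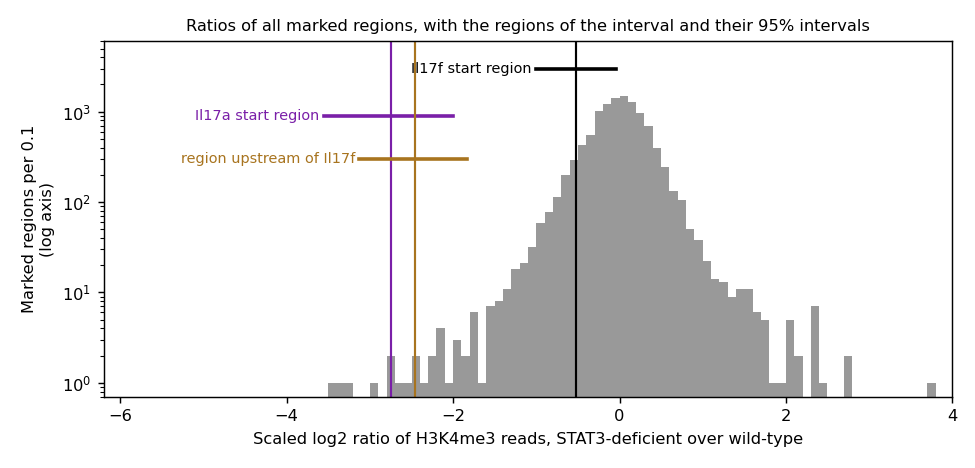
Number of marked regions (vertical log axis) by scaled log2 ratio of STAT3-deficient to wild-type H3K4me3 reads (horizontal axis, bins of 0.1), with vertical lines and 95% intervals for the 3 regions of the interval. Il17a (-2.74) and the region upstream of Il17f (-2.45) sit in the sparse left tail, and the Il17f start (-0.52) sits inside the main body.

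Away from the 3 marked regions and 1 kb on each side, H3K4me3 reads in the interval followed the library totals. The remaining 88.8 kb held 551 reads in wild-type and 510 in STAT3-deficient cells, 6.20 and 5.74 per kb. By library totals the log2 ratio was -0.09 (-0.26 to 0.09), and scaled by marked regions it was -0.41 (-0.58 to -0.23). Scaling by marked regions lowers each log2 ratio by 0.32 against library totals, so the second value says little beyond that shift. The 3 marked regions together held 296 and 114 reads in 5200 bp, 56.9 and 21.9 per kb. A window from -9 to -8 kb of the Il17a start was the highest outside marked regions in STAT3-deficient cells, with 20 wild-type and 31 STAT3-deficient reads.

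Phospho-STAT3 in wild-type cells was dense in the interval taken as a whole, but uneven within it. The interval held 42.5 reads per kb, against a genome mean of 3.83, 3.21 in the 100 kb before it and 7.10 in the 100 kb after it. Its part before the Il17a start held 14.8 reads per kb, and the first 7 kb from that start held 84.1. A site needed 10 reads or more in 200 bp, from both strands, and a Poisson p under 1e-08 given the local density over 10 kb or, where larger, that of the genome. That 10 kb includes the site itself, so a site's own reads raise its local expectation and lower its fold. The interval's 18 sites had 20 to 207 reads in their highest window, with a median of 55 against 21 for all sites of the genome. Their fold over the local expectation ran from 3.66 to 23.96, with a median of 7.93 that was below the 9.92 of all sites. Even so, 14 of the 18 fell among the 25% of sites with the largest excess over it.

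The highest sites lay between the genes. The site at chr1:20730400-20731199, 9.90 kb downstream of the Il17a start, held 207 reads (180 to 237) where 12.1 were expected locally, and its excess ranked 9 of 27061 sites. The site at chr1:20749550-20750349, 29.0 kb downstream of that start, held 195 reads (169 to 224) against 10.5 and ranked 14. Between and beyond them, sites at 23.6 kb and 35.8 kb held 96 and 92 reads and ranked 239 and 246, and those at 17.8 kb and 44.5 kb held 35 and 33. The site at 35.8 kb had the largest fold over this local expectation, 23.96, though the expectation counts each site's own reads. The first 2 sites named stood far above the rest, since the interval of neither count reaches that of any other site of the locus. The files hold at most 1 read per position and strand, which puts a ceiling on high counts. Such counts and their ranks may be held down, and the intervals do not cover this.

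Sites lay at both gene starts as well. At Il17a, 3 sites stood side by side, at 0.05, 0.80 and 1.30 kb from the start, with 77, 69 and 52 reads, and all 3 overlapped the marked region. The site at the Il17f start, chr1:20774200-20774749, held 85 reads (67.9 to 105) against 14.7 expected and had its top 0.10 kb upstream of the start. Its interval overlaps that of the site at the Il17a start, 60.8 to 96.2, so these top windows were not distinguishable at this depth. Counted only from the start into the gene, Il17a held more. The first kb had 190 phospho-STAT3 reads (164 to 219) at Il17a and 79 (62.5 to 98.5) at Il17f. The marked regions had 184 and 85.5 reads per kb, also with intervals that do not overlap. Both measures leave out reads before the start, where the nearest 200 bp held 42 at Il17a and 85 at Il17f. Over 7 kb from the Il17a start and 10 kb from the Il17f start, the densities were 84.1 and 83.6 reads per kb. Before the Il17a start, sites at -4.80 and -5.10 kb held 31 and 20 reads, and a pair at -15.5 and -16.8 kb held 25 and 57.

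Upstream of Il17f, 4 sites followed the one at its start. That at 2.85 kb held 53 reads. The next, chr1:20781500-20781999 at 7.35 kb, held 122 reads (101 to 146) against 11.3 expected and ranked 114, the third highest of the interval. It lay 1.05 kb from the upstream marked region on the side of the Il17f start, and its top window held 73 plus-strand and 49 minus-strand reads. Inside that marked region, a smaller site at 8.45 kb held 39 reads. The last site, at 17.5 kb, held 53.

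**Figure D5:**
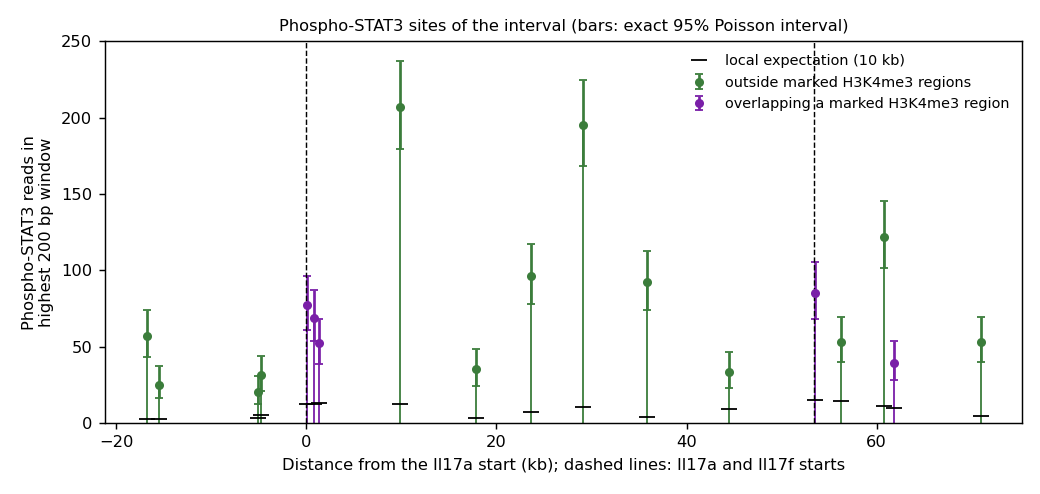
Phospho-STAT3 reads in the highest 200 bp window of each of the 18 sites (vertical axis, with exact 95% Poisson intervals) against distance from the Il17a start in kb; short black bars give the local expectation and colour shows whether a site overlaps a marked H3K4me3 region. The sites at 9.90 and 29.0 kb, with 207 and 195 reads, stand highest. All sites lie above their local expectation because the calling rule requires it.

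Phospho-STAT3 reads were also raised between the sites where Il17a and Il17f begin. Outside sites and 200 bp around them, the first 7 kb from the Il17a start held 310 reads in 5300 bp, 58.5 per kb. The first 10 kb downstream of the Il17f start held 722 reads in 8949 bp, 80.7 per kb. Gene ends were not placed on mm9, so these stretches may run past the genes. The stretch before Il17a held 4.38 per kb outside sites, the stretch between these parts 13.8 and the stretch upstream of Il17f 20.6. The 4 sites at the starts had local expectations of 12.2 to 14.7 reads and folds of 3.99 to 6.32, and the 5 sites from 9.90 to 35.8 kb had expectations of 3.26 to 12.1 reads and folds of 10.7 to 23.96. Wild-type H3K4me3 over the whole stretches, marked regions and sites included, was 22.3 reads per kb at Il17a and 15.2 at Il17f, against 4.18 between them. It was 5.86 before Il17a and 13.6 upstream of Il17f. No input library was at hand, and the part of open chromatin in this broad signal was not tested.

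Few of the sites were seen in the H3K4me3 libraries. The same caller found 4 of the 18 in the wild-type H3K4me3 library, the 3 at the Il17a start and the one inside the upstream marked region, and none in the STAT3-deficient library. The sites with the largest excess had background H3K4me3. Within 1 kb of the site at 9.90 kb there were 8 wild-type and 13 STAT3-deficient H3K4me3 reads, and the site at 29.0 kb had the same counts. Over all 13 sites that did not overlap a marked region, the windows within 1 kb held 151 wild-type reads and 153 from STAT3-deficient cells, a log2 ratio of -0.28 (-0.61 to 0.06) scaled and 0.04 (-0.29 to 0.38) by library totals.

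Single sites with an interval of the H3K4me3 ratio below no difference were those in the 2 lower marked regions and one upstream of Il17f. Within 1 kb of the 3 sites at the Il17a start, the scaled log2 ratios were -2.35, -2.43 and -2.32, and at the site inside the upstream region -2.23. At the Il17f start site, 35 reads were found in each library, a ratio of -0.30 (-1.01 to 0.42). The site 2.85 kb upstream of Il17f had 20 wild-type and 7 STAT3-deficient reads within 1 kb, a ratio of -1.81 (-3.30 to -0.51), though no marked region was called there. The intervals at the other 12 sites include no difference. Across the 100 windows of 1 kb, which share libraries and mappability, Spearman's rho was 0.60 between the H3K4me3 libraries, 0.50 between wild-type H3K4me3 and phospho-STAT3 and 0.45 between STAT3-deficient H3K4me3 and phospho-STAT3.

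Placed among all 26427 windows of 100 kb of the genome, the interval ranked 3 by phospho-STAT3 reads, with 4247 against a median of 288. The 2 windows with more reads were at the first assembled 100 kb of chromosome 11, with 9090 phospho-STAT3 and 12392 wild-type H3K4me3 reads, and on chromosome 17 from 39900000, with 7441 reads and 2 sites. By number of sites it tied for the highest place with the first assembled 100 kb of chromosomes 9 and 11, each with 18, while the median window had 0. The 20 windows around it, 10 on each side, held at most 741 phospho-STAT3 reads, 4 sites and 1 site among the strongest 25%. The dense signal ended within 100 kb on both sides.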

How the data were processed

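ChIP-seq libraries of H3K4me3 (both genotypes) and phospho-STAT3 (wild-type) were analysed, 1 each. The deposited files hold aligned reads of 25 bp, listing for each read its position, strand and a match code. Build mm9 and SICER are named, per the submitters' processing notes. The aligner and all versions: not given in the sources used here. No position and strand holds more than 1 read, so duplicates were absent from the deposited files. Positions are printed as the files give them. Whether the files count from 0 or 1 could not be settled, so they may be off by 1 base.

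Reads were moved 75 bp towards the fragment centre (the median distance between strands at the 18 sites was 95.8 bp). For H3K4me3 regions, reads of both libraries were summed in 200 bp windows, those reaching 12 reads (Poisson p of 1e-05, mappable share 0.8) were joined within 600 bp, and 2 or more windows were required. Regions with at least 50 reads are called marked. Ratios carry exact Clopper-Pearson intervals and counts exact Poisson intervals. Reads carry no molecular identifiers, so intervals cover counting error only. The size rule and site caller were tested on simulated data. The interval, gene starts, lists and settings were chosen with earlier results of these data known. All regions and sites with midpoints in the interval are reported. Gene coordinates and the pathway list were not used, since the RefSeq table is on GRCm38.p6. Alternatives were other scalings, read shifts, calling libraries, windows, thresholds, thinned reads and, chosen after seeing the data, windows set from the gene starts, joined sites, a shift of 50 bp and perfectly matching reads. Python 3.11.15, numpy 2.4.6, scipy 1.17.1, pandas 2.3.3 and matplotlib 3.10.9 were used.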

Additional observations from a re-analysis of the deposited data

How the results depend on the processing

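With 1 library per group, no replicate could be left out, and what the genotypes do beyond counting error is unknown. No paired analysis was possible because each group holds 1 library. The scaled log2 ratio at the Il17a start stayed between -3.46 and -2.39 over 10 alternatives, past the size rule in all 9 that give an interval. The region upstream of Il17f stayed between -2.95 and -2.11 over 9 alternatives, past the rule in all 8 with an interval. The Il17f start ranged from -0.77 to -0.18 over 11 alternatives and passed the rule in none of the 10 with an interval. When only STAT3-deficient reads were used for calling regions, the Il17f start was called and neither of the other regions was, so those have no value there. The interval outside marked regions moved from -0.41 to -0.087 by library totals. Counts over the genome moved with the scaling and the read minimum: by library totals 54 regions were lower and 319 higher, with at least 100 reads 42 and 52, and with at least 20 reads 369 and 202. The interval's 18 sites became 44 against the genome-wide density alone, and lay between 15 and 19 in the other 8 alternatives. In windows of 50 kb, the first part ranked 6 by phospho-STAT3 reads and 2 by sites, and the second part 5 and 39.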

Other observations

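Most windows crowded with phospho-STAT3 sites held no region with lower H3K4me3. Of 68 windows of 100 kb with at least 10 sites, 59 held a marked region and 7 held one that was lower by the size rule. Of all 26427 windows, 6569 held a marked region and 123 held a lower one, a smaller share than among the crowded windows. The 166 marked regions of the crowded windows included 8 lower ones (4.82%, against 1.16% of all marked regions) and 3 higher ones (1.81%, against 1.01%). The window of Il17a and Il17f is among the 68 and gave 3 of these marked regions and 2 of the 8 lower ones. It was the 1 crowded window with 2 lower regions. In the whole genome 3 windows held 2 or more, the others being on chromosome 13 from 41000000, with 9 sites and 2 lower of 3 marked regions, and on chromosome 17 from 51900000, with 6 sites and 3 lower of 5. Reads with a mismatch made up 3.54%, 3.57% and 3.58% of the interval's reads in the wild-type H3K4me3, STAT3-deficient H3K4me3 and phospho-STAT3 libraries, below 3.90%, 3.97% and 4.58% in the whole libraries.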
